A study of Mus musculus with 6 samples.

Results

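The RUNX, MEF2 and HDAC4 regulators of cartilage hypertrophy were followed through cultures of mouse limb mesenchyme. They are 8 genes, namely *Runx1*, *Runx2*, *Runx3*, *Cbfb*, *Mef2a*, *Mef2c*, *Mef2d* and *Hdac4*, taken by symbol from the 32286 genes of the count matrices. The cultures, called digits in a dish or DID, were grown from distal forelimb mesenchyme of wild-type CD-1 mouse embryos at E11.5, and were profiled with 3′ single-cell RNA sequencing at Day 2, Day 7 and Day 10. All of them received the same growth conditions, and culture time is the only factor in the labels. Days were prepared as separate libraries, so effects of culture time and of preparation cannot be told apart. Each day has 2 libraries, replicates A and B, from independent cultures of tissue pooled from several embryos, which is the n of every comparison between days.

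In the growth plate of long bones, chondrocytes stop dividing, enlarge and switch on *Ihh*, then *Col10a1*, before the matrix mineralizes and *Ibsp* appears. *Ihh* encodes Indian hedgehog, the signal of prehypertrophic chondrocytes, *Col10a1* encodes the collagen X of hypertrophic cartilage, and *Ibsp* encodes bone sialoprotein, which osteoblasts and late hypertrophic chondrocytes make. RUNX2 and RUNX3 drive this maturation, RUNX1 acts earlier and in perichondrium and blood cells, and CBFβ, the product of *Cbfb*, is the shared partner without which RUNX proteins bind DNA weakly. MEF2C also drives hypertrophy, MEF2A and MEF2D are its widely expressed relatives, and the histone deacetylase HDAC4 holds MEF2 and RUNX2 activity down in chondrocytes. PTHrP acts through its receptor, encoded by *Pth1r*, to keep HDAC4 in the nucleus.

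Of 91215 barcodes, 72099 cells passed the limits of the study, with 178022112 to 260245417 unique molecular identifiers (UMIs, counted molecules) per library. Between 24 and 67 cell barcodes were shared by any pair of libraries, at most 0.543% of the smaller one. Day 2 replicate B stood apart in depth, with a median of 3871 UMIs per cell against 18587 in Day 2 replicate A, so calls on the 8 genes that use Day 2 and were lost without it are named. Levels of whole cultures are CPM, a gene's share of the UMIs of the library, after TMM scaling (scaled CPM), and those of groups of cells are CPM of their summed UMIs without it. Fold changes of both kinds come from the fit, with TMM scaling, and so can differ from the ratio of the CPM of such groups. Counts at the 3′ end do not give comparable levels of different genes, so each gene was compared only with itself. In whole cultures, fewer cells of a type and less RNA per cell cannot be told apart.

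All 3 RUNX genes rose over the culture. *Runx2* (ENSMUSG00000039153, chr17:44495987-44814797, minus strand, GRCm38), the main RUNX gene of hypertrophic cartilage and bone, stood at 28.2 and 30.7 scaled CPM on Day 2 (replicate A, then B, here and throughout), 49.1 and 47.5 on Day 7, and 62.9 and 66.1 on Day 10. The 3 days did not overlap, and both steps passed the test, with log2 fold changes of 0.72 ± 0.06 (SE, edgeR adjusted p = 6.24e-06) from Day 2 to Day 7 and 0.42 ± 0.06 (edgeR adjusted p = 0.000518) from Day 7 to Day 10. *Runx3* (ENSMUSG00000070691, chr4:135120652-135177990, plus strand), which overlaps *Runx2* in function in maturing chondrocytes, stood at 6.95 and 7.75 on Day 2, 11.1 and 11.2 on Day 7, and 16.3 and 17.5 on Day 10. Its log2 fold change was 0.60 ± 0.07 at each step, and Day 10 was 2.30-fold above Day 2 (edgeR adjusted p = 4.69e-07).

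*Runx1* (ENSMUSG00000022952, chr16:92601466-92826149, minus strand) made most of its rise early, from 35.4 and 33.3 scaled CPM at Day 2 to 62.2 and 63.4 on Day 7, a log2 fold change of 0.87 ± 0.06 (edgeR adjusted p = 1.38e-06). It stood at 69.2 and 73.9 on Day 10, a second step of 0.19 on the log2 scale (edgeR adjusted p = 0.019) that did not pass without Day 10 replicate B, where it was 0.15, or without either Day 7 library, where it was 0.17 and 0.20. *Cbfb* (ENSMUSG00000031885, chr8:105170674-105217989, plus strand), the partner of all 3, did not follow them. It was 41.7 and 45.9 on Day 2, 34.2 and 31.5 on Day 7, and 45.3 and 38.0 on Day 10, a fall of -0.41 ± 0.09 on the log2 scale (edgeR adjusted p = 0.00271) and then a rise of 0.34 ± 0.09 (edgeR adjusted p = 0.0114). Without scaling the fall was larger, from 46.8 and 52.4 CPM on Day 2 to 32.2 and 29.2 on Day 7 in cells with no *Ibsp* UMI. The later rise did not pass without Day 10 replicate A (0.21) or without Day 7 replicate B (0.29), and Day 10 against Day 2 did not pass either (-0.07, edgeR adjusted p = 0.48).

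The promoters of the RUNX genes are shown because RUNX proteins bind the core TGTGGT, and the 3 genes share an arrangement of it. RefSeq promoter windows (GRCm38.p6, 250 bases before to 50 after a gene's start) were found for all 8 genes and the 3 markers, and were searched on both strands for TGTGGT, for the variant core TGCGGT and for the MEF2 motif. Capitals mark the matches, and ACCACA is TGTGGT read on the other strand.
Runx1, first of 2 windows, chr16:92826025-92826324, minus strand: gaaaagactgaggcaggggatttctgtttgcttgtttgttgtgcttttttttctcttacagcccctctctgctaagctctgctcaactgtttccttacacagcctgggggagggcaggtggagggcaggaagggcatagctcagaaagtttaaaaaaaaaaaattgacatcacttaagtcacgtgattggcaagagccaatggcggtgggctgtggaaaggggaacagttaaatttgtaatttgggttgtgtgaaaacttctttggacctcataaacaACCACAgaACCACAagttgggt
Runx2, chr17:44814578-44814877, minus strand: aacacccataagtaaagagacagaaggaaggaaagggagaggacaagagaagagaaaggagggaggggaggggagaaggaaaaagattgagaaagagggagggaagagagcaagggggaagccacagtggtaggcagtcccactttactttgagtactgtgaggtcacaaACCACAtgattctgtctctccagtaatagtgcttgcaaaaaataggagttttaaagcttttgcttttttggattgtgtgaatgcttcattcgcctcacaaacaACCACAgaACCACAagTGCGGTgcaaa
Runx3, first of 2 windows, chr4:135120395-135120694, plus strand: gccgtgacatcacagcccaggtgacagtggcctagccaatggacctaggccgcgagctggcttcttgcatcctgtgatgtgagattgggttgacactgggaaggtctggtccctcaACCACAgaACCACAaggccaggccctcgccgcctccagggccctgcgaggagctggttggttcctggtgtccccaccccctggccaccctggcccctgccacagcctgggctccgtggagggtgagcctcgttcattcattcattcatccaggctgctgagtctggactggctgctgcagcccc

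In each of these 3 windows, a pair of TGTGGT cores began 8 bases apart on 1 strand. The same pair was found in 7 of 32851 RefSeq promoters (0.0213%), of which 3 are these windows. The search for it was made after it had been seen in them. TGTGGT alone was present in 16.8% of promoters and TGCGGT in 6.45%. The *Ihh* window (chr1:74951623-74951922, minus strand) held 1 TGCGGT that began at -45 from the start, and the *Mef2a* window held 1 MEF2 motif at -2, a motif present in 3.19% of promoters. No match was found in the windows of *Col10a1*, *Ibsp*, *Cbfb*, *Mef2c*, *Mef2d* or *Hdac4*, nor in the second windows of *Runx1* and *Runx3*. A match is a description of letters, and binding was not measured.

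After TMM scaling, all 3 MEF2 genes were higher at Day 7 and Day 10 than at Day 2. Unscaled CPM are at hand for cells with no *Ibsp* UMI, nearly all cells of Day 2 and Day 7. There *Mef2a* was at 106 and 111 on Day 2 and 111 and 111 on Day 7. *Mef2c* was at 134 and 152, then 152 and 144, so the days overlapped for both. *Mef2d* was at 16.3 and 17.3, then 21.8 and 21.6. *Mef2c* (ENSMUSG00000005583, chr13:83504034-83667080, plus strand) stood at 119 and 133 scaled CPM at Day 2, 165 and 157 on Day 7, and 196 and 204 on Day 10, with steps of 0.35 ± 0.06 (edgeR adjusted p = 0.00106) and 0.31 ± 0.06 (edgeR adjusted p = 0.00401) on the log2 scale. Skeletal muscle cells, which use *Mef2c* strongly, were also in the cultures. Day 2 held 340 and 259 muscle-like cells, with 765 and 878 CPM of *Mef2c*, and without muscle-like and macrophage-like cells the first step was 0.66 in place of 0.35. *Mef2d* (ENSMUSG00000001419, chr3:88142372-88172086, plus strand) went from 14.5 and 15.1 on Day 2 to 23.3 and 23.4 on Day 7 and 27.1 and 25.7 on Day 10. Its first step was 0.66 ± 0.05 (edgeR adjusted p = 5.81e-06), and its second of 0.18 (edgeR adjusted p = 0.0195) did not pass without Day 10 replicate A (0.14) or without either Day 7 library (0.17 and 0.18). *Mef2a* (ENSMUSG00000030557, chr7:67231163-67372858, minus strand) rose only at the first step and only with scaling. Its scaled CPM went from 94.0 and 97.5 to 118 and 119 (0.31 ± 0.05, edgeR adjusted p = 0.000718), and were 109 and 117 on Day 10.

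*Hdac4* (ENSMUSG00000026313, chr1:91928779-92195699, minus strand), the repressor of the set, was also higher after Day 2. It stood at 11.9 and 13.6 scaled CPM at Day 2, 19.5 and 20.1 on Day 7, and 20.6 and 18.8 on Day 10. The first step was 0.64 ± 0.07 (edgeR adjusted p = 6.71e-05) and the second -0.01 (edgeR adjusted p = 0.946), with Day 7 and Day 10 overlapping. Without scaling the first step was smaller. In cells with no *Ibsp* UMI, *Hdac4* went from 13.4 and 15.5 CPM on Day 2 to 18.3 and 18.7 on Day 7. Of the 8 genes, 7 rose and 1 fell from Day 2 to Day 7, where 70.3% of the 18987 genes tested passed in either direction. From Day 7 to Day 10, 6 rose, where 52.2% of genes passed and 26.3% rose. From Day 2 to Day 10, 7 rose, where 77.3% passed and 39.0% rose, so most genes of the culture moved with time. Without Day 2 replicate B, all 8 still passed at the first step, with *Runx1* at 0.83, *Runx2* at 0.78, *Runx3* at 0.68, *Mef2c* at 0.43, *Mef2d* at 0.69, *Mef2a* at 0.33, *Hdac4* at 0.73 and *Cbfb* at -0.34. The counts of the 3 pathway lists given further on were not run without that library. For fits with a library left out, here and throughout, the share of all genes that passed is not given. Without Day 7 replicate B, 3 of 6 passed at the second step.

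**Figure D1:**
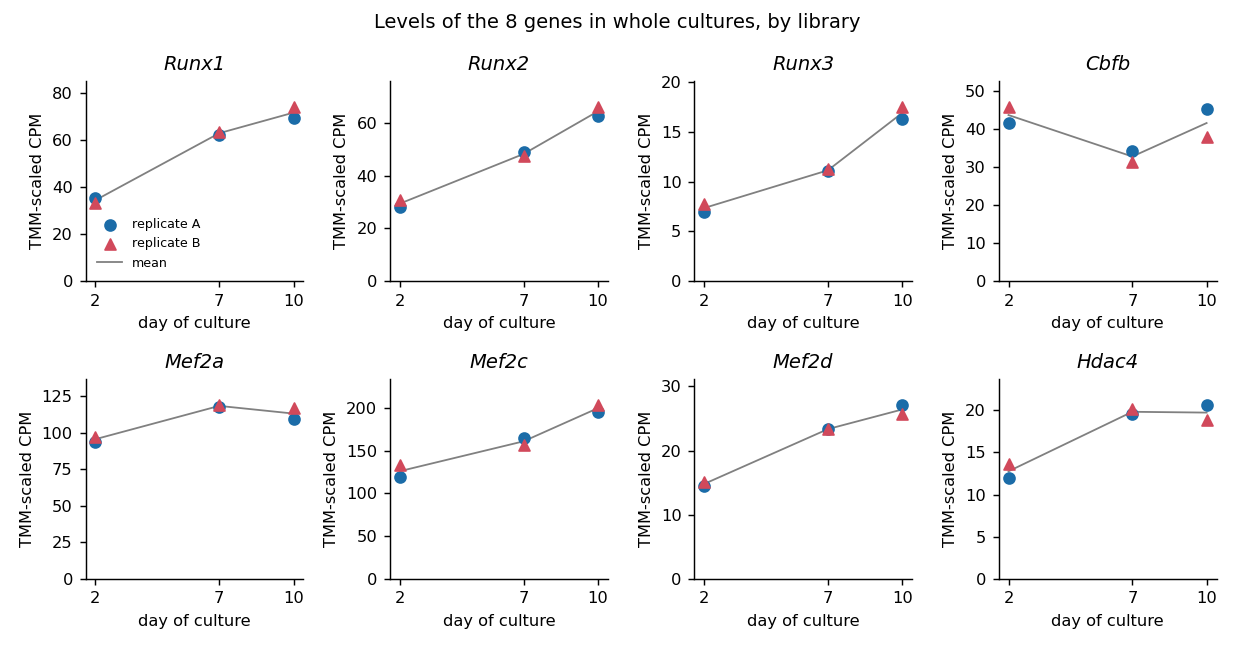
Scaled CPM of each of the 8 genes (vertical axes, from 0) by day of culture (horizontal axes), with 1 point per library and a line through the means. *Runx1*, *Runx2*, *Runx3*, *Mef2c* and *Mef2d* are highest at Day 10, *Hdac4* is level from Day 7, and *Cbfb* dips at Day 7.

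The share of cells with a UMI was also taken after each cell was thinned to 3000 UMIs, with shallower cells left out. Thinned shares for *Runx2* were 9.63% and 9.64% on Day 2, 15.3% and 14.8% on Day 7, and 19.3% and 20.8% on Day 10. Without thinning they were 35.1% and 19.9%, 38.1% and 38.1%, and 59.2% and 57.9%, and the replicates of Day 2, which differ in depth, then stood apart. For *Runx3*, thinned shares were 2.45% and 2.38% on Day 2, 2.82% and 2.92% on Day 7, and 4.62% and 5.89% on Day 10, against unthinned shares of 10.0% and 5.56%, 10.7% and 11.0%, and 18.7% and 19.6%. The thinned *Runx3* shares were thus close on Day 2 and Day 7, and higher on Day 10. They come from unscaled counts without the shallower cells, so they cannot be set against the scaled step of 0.60. Unscaled, *Runx3* was 7.76 and 8.81 CPM on Day 2 and 10.0 and 10.1 on Day 7 in cells with no *Ibsp* UMI.

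The 3 markers of maturation all rose with time. *Ihh* stood at 4.98 and 5.74 scaled CPM at Day 2, 16.0 and 16.9 on Day 7, and 28.0 and 27.7 on Day 10. *Col10a1* was 4.39 and 3.98, then 33.6 and 30.1, then 138 and 96.5, and *Ibsp* was 0.0779 and 0.246, then 3.56 and 5.35, then 531 and 757. Cells were therefore divided by whether they held a UMI of *Ihh*, *Col10a1* or *Ibsp*, and the 8 genes were compared within libraries. The difference between cells with and without a marker is called its effect, and no action of the marker is meant. RNA free in the suspension can give such UMIs to cells that do not make them, as can doublets, and neither was measured. At Day 10, 12.2% and 10.9% of cells had an *Ihh* UMI, against 3.79% and 7.43% of macrophage-like cells, which should lack it. For *Col10a1* the shares were 27.5% and 21.3% against 19.7% and 12.6%, and for *Ibsp* 25.3% and 25.8% against 16.7% and 20.6%, at median depths of 24197 and 22128 UMIs in all cells and 20826 and 21188 in macrophage-like cells. Classes drawn at 1 UMI are thus close to the shares in macrophage-like cells, above all for *Ibsp* and *Col10a1*. At 3 or more UMIs the shares were 5.25% and 5.18% against 0% and 1.14% for *Ihh*, and 7.95% and 7.79% against 1.52% and 2.86% for *Col10a1*. For *Ibsp* they were 6.09% and 6.72% against 1.52% and 4% (2 of 132 and 7 of 175 macrophage-like cells). The highest *Ibsp* count in a macrophage-like cell was 728 UMIs, in replicate B. The Day 10 comparisons over all cells are also given for the class of 3 or more UMIs, and elsewhere the calls that changed in it are named.

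Cells with *Ihh* at Day 10 had high *Mef2c*, *Runx3* and *Runx2* and low *Runx1* and *Hdac4*. The class held 1264 and 1081 cells in replicates A and B, against 9121 and 8868 without. *Mef2c* was 329 and 343 CPM with *Ihh* and 155 and 165 without, 2.36-fold higher (log2 fold change 1.24 ± 0.02, edgeR adjusted p = 1.13e-16). *Runx3* was 34.0 and 33.2 CPM with and 11.6 and 13.4 without, 3.03-fold higher (1.60 ± 0.06, edgeR adjusted p = 3.7e-13). *Runx2* was 76.3 and 82.6 with and 55.7 and 59.2 without, a smaller difference of 0.64 ± 0.03 (edgeR adjusted p = 5.91e-12). *Mef2d* was higher by 0.39 ± 0.05, at 28.3 CPM in both replicates against a mean of 24.3 in cells without, although with cells thinned to 3000 UMIs the value was -0.086 and did not pass.

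The other 4 genes were lower in these cells. *Runx1* was 35.4 and 34.3 CPM with *Ihh* and 71.2 and 77.3 without, and fell by 0.92 ± 0.04 on the log2 scale (edgeR adjusted p = 2.36e-12), opposite to its paralogs. *Hdac4* was 12.2 and 10.2 with and 20.9 and 19.4 without (-0.67 ± 0.06, edgeR adjusted p = 4.51e-08). *Mef2a* was 74.9 and 81.7 against 109 and 117 (-0.36 ± 0.03), and *Cbfb* was 33.6 and 28.3 against 44.5 and 37.7 (-0.24 ± 0.03), the smallest of the differences, which did not pass with cells thinned (-0.39, edgeR adjusted p = 0.085). All 8 genes passed, where 59.6% of the 18184 genes tested did. With 3 or more *Ihh* UMIs (545 and 515 cells) each difference kept its direction and was larger, at 1.51 for *Mef2c*, 1.96 for *Runx3*, 0.78 for *Runx2*, -1.20 for *Runx1* and -0.94 for *Hdac4*, where 59.1% of genes passed. Scaling added a median of 0.17 to the log2 ratio of the CPM of the 8 genes at 1 or more UMIs and 0.21 at 3 or more, so that the unscaled *Mef2c* ratio was 1.07 at 1 or more, and all 8 genes kept their direction in both replicates without scaling. Thinned fits drew the classes again on thinned counts, so that cells which lost their marker UMIs counted as without. For shares, cells were thinned but the classes stayed as drawn on full counts. *Mef2c* was then found in 55.4% and 58.8% of cells with *Ihh* against 36.8% and 39.4% without, and *Runx1* in 11.0% and 11.3% against 20.4% and 21.7%. *Runx2* was found in 21.1% and 22.3% against 19.1% and 20.6%, with exact binomial intervals that overlapped in each replicate.

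Other properties of the cells moved with the *Ihh* class. Its median depth was 35130 and 33171 UMIs, against 22885 and 20646 in cells without. The 8 cartilage markers summed to 32834 and 31460 CPM against 5879 and 5318, the 3 contractile markers to 1567 and 1811 against 4640 and 4746, and the 11 genes of the dissociation response to 851 and 883 against 1409 and 1497. Their part in the result was not tested. In cells of 10000 to 40000 UMIs only, the *Ihh* differences were in the same direction for all 8 genes, with *Mef2c* at 1.11, *Runx2* at 0.83 and *Hdac4* at -0.45. Among cells with 2 or more UMIs of *Acan*, which encodes the cartilage proteoglycan aggrecan, all 8 passed, with *Mef2c* at 0.97, *Runx3* at 1.11, *Runx2* at 0.36, *Runx1* at -1.07 and *Hdac4* at -0.68, where 61.3% of genes passed. In that thinned subset, however, *Runx2* was at -0.078 and *Mef2d* at -0.25, and 4 of 8 passed, in a fit for which the share of all genes is not given.

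Cells with *Ibsp* at Day 10 shared the high *Mef2c*, *Runx3* and *Runx2* but not the low *Runx1*. The class held 2625 and 2562 cells against 7760 and 7387. *Runx3* was 26.8 and 28.1 CPM with *Ibsp* and 10.4 and 11.2 without (log2 fold change 1.38, edgeR adjusted p = 1.1e-12). *Mef2c* was 277 and 286 with and 144 and 151 without (0.96, edgeR adjusted p = 1.09e-12), and *Runx2* was 75.0 and 78.5 with and 52.3 and 55.6 without (0.54, edgeR adjusted p = 1.01e-09). In contrast, *Runx1* was not separated (-0.02, edgeR adjusted p = 0.794), nor was *Cbfb* (0.01, edgeR adjusted p = 0.842). *Mef2d* (0.19, edgeR adjusted p = 0.00123), *Mef2a* (-0.13, edgeR adjusted p = 0.00406) and *Hdac4* (-0.22, edgeR adjusted p = 0.00277) also passed, so that 6 of 8 genes did, where 27.3% of 17554 genes passed. These 3 calls did not hold with DESeq2. *Mef2d* and *Mef2a* did not pass without Day 10 replicate A (0.20 and -0.11) or B (0.18 and -0.16), and *Hdac4* did not pass without replicate B (-0.16). With cells thinned, *Mef2a* turned to 0.20 and *Hdac4* to 0.047, and *Runx1* passed at 0.37.

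With 3 or more *Ibsp* UMIs (632 and 669 cells), the separation was far larger. *Mef2c* reached 550 and 549 CPM, 4.06-fold above cells without *Ibsp* in the scaled fit (edgeR adjusted p = 1.04e-19). *Runx3* reached 55.1 and 52.9 CPM, 5.44-fold higher (edgeR adjusted p = 2.12e-20), and *Runx2* reached 118 and 119 CPM, 2.39-fold higher (edgeR adjusted p = 1.99e-16). In this class *Mef2d* was at 0.67, *Hdac4* at -0.39 and *Runx1* at 0.18 (edgeR adjusted p = 0.0108), and 40.6% of genes passed. Scaling added 0.12 there, and the CPM of *Runx1* were 70.6 and 71.7 with *Ibsp* against 64.9 and 72.1 without, higher in replicate A only. *Mef2a* (-0.096, edgeR adjusted p = 0.174) did not pass in this class. *Ibsp* cells were deeper too, with a median of 30139 and 28330 UMIs against 22122 and 19389 at 1 or more UMIs, and their cartilage markers summed to 15805 and 13485 CPM against 8115 and 7715.

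*Col10a1* separated the fewest of the 8 genes at Day 10. With *Col10a1* at Day 10 (2852 and 2122 cells against 7533 and 7827), *Mef2c* was 216 and 221 CPM against 168 and 184 (0.33, edgeR adjusted p = 5.51e-05), and *Runx3* was 19.2 and 20.1 against 13.4 and 15.4 (0.46, edgeR adjusted p = 5.08e-05). *Runx1* was 58.7 and 58.8 against 68.4 and 74.6 (-0.27, edgeR adjusted p = 0.0033), a call lost without Day 10 replicate B (-0.20). *Runx2*, whose protein is known to act on the *Col10a1* promoter, was not separated (0.02, edgeR adjusted p = 0.76). Thus 3 of 8 passed, where 10.2% of 18782 genes did. In cells of 10000 to 40000 UMIs, *Runx3* (0.22) and *Runx1* (-0.14) did not pass, nor did they with cells thinned (0.37 and -0.045). With 3 or more UMIs (826 and 775 cells), 5 passed, with *Mef2c* at 0.60, *Runx3* at 0.72, *Mef2d* at 0.19, *Runx1* at -0.43 and *Cbfb* at -0.17, where 17.7% of genes passed, and *Runx2* was still at 0.01 (edgeR adjusted p = 0.913).

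**Figure D2:**
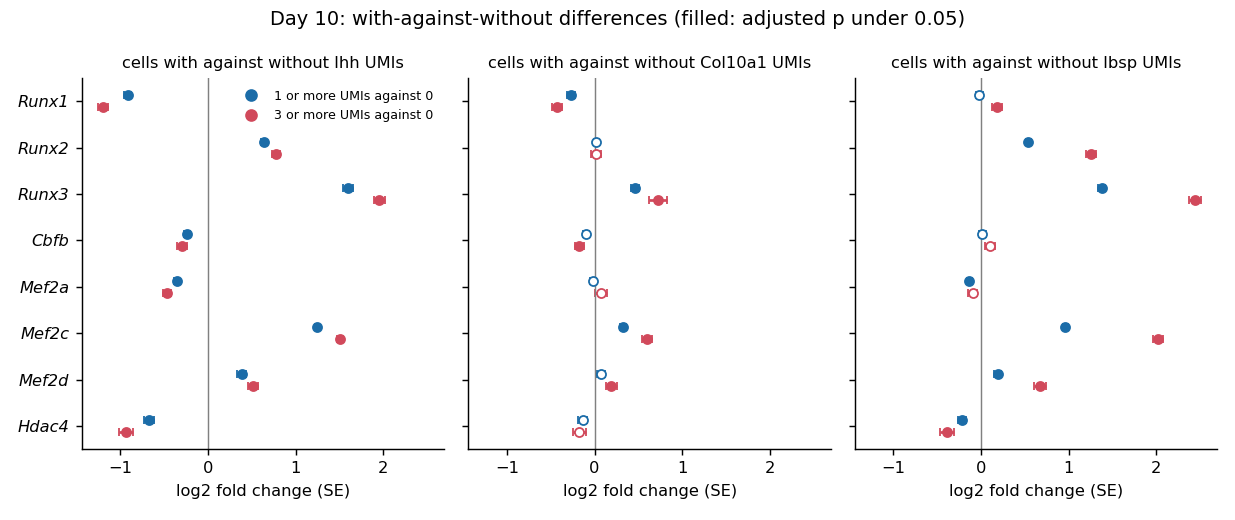
Log2 fold change with its SE (horizontal axes) of each gene between Day 10 cells with and without UMIs of *Ihh*, *Col10a1* or *Ibsp* (panels), for 1 or more UMIs (blue) and 3 or more (red), filled where the adjusted p was under 0.05. *Mef2c* and *Runx3* lie right of 0 in every panel, *Runx1* is filled left of 0 for *Ihh* and *Col10a1*, and *Runx2* lies at 0 for *Col10a1*.

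The number of marker UMIs graded these levels at Day 10, in bins chosen after the classes had been seen and given without a test. From 0 to 1, 2, 3 to 9, 10 to 99 and 100 or more *Ibsp* UMIs, *Mef2c* in replicate A went through 144, 165, 217, 343, 537 and 821 CPM, and in replicate B through 151, 161, 239, 356, 485 and 851. The top bin held 157 and 172 cells. *Runx3* went from 10.4 and 11.2 CPM in cells with no *Ibsp* to 46.3 and 49.0 at 3 to 9 UMIs, and was 63.7 and 55.5 in the top bin. *Runx2* was highest at 10 to 99 UMIs, at 133 and 135 CPM, and was 120 and 114 in the top bin. At 1 *Ibsp* UMI, both *Runx2* (56.7 and 56.5) and *Mef2c* were close to cells with none, at 165 and 161 CPM for *Mef2c*.

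Over the *Ihh* bins, *Runx1* went down from 71.2 and 77.3 CPM in cells with none to 31.0 and 25.2 in the 212 and 183 cells with 10 to 99 UMIs. *Hdac4* went down with it, from 20.9 and 19.4 to 7.69 and 7.56, while *Mef2c* went up from 155 and 165 to 451 and 412. Over the *Col10a1* bins, *Mef2c* stayed below 300 CPM up to 99 UMIs and was 476 and 451 in the 66 and 41 cells with 100 or more. In those cells *Runx3* was 43.0 and 42.3, and *Runx2* was 83.8 and 66.6 against 59.2 and 62.7 in cells with none.

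**Figure D3:**
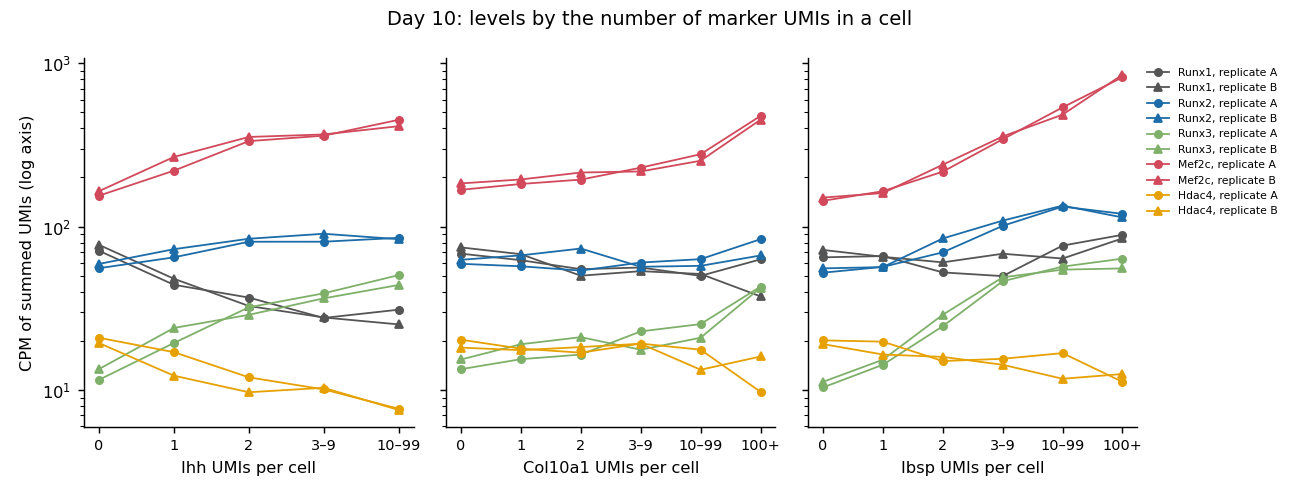
CPM of 5 of the genes (vertical axis, log scale) in Day 10 cells by their number of *Ihh*, *Col10a1* or *Ibsp* UMIs (horizontal axes), with a line for each replicate. *Mef2c* climbs along all 3 markers and *Runx3* along *Ihh* and *Ibsp*, both most steeply along *Ibsp*. Along *Col10a1*, *Runx3* in replicate B is 21.1 CPM at 2 UMIs, 17.7 at 3 to 9 and 20.9 at 10 to 99. *Runx1* and *Hdac4* end lower than they start along *Ihh*.

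The 3 classes overlap, and 326 and 241 of the Day 10 cells held UMIs of all 3 markers. An additive fit over the 8 combinations gave each marker's term with the other 2 held. Its 16 sums come from only 2 libraries, so its p-values are smaller than 2 libraries warrant, and the values in both libraries carry the comparison. *Mef2c* was 128 and 136 CPM in cells with none of the 3 markers, 138 and 142 with *Col10a1* alone, 219 and 236 with *Ibsp* alone, 229 and 250 with *Ihh* alone, 373 and 414 with *Ihh* and *Ibsp*, and 415 and 411 with all 3. The terms for *Mef2c* were 1.02 ± 0.03 for *Ihh*, 0.74 ± 0.03 for *Ibsp* and 0.11 ± 0.03 for *Col10a1*. With classes of 3 or more UMIs they were 0.85, 1.26 and -0.056, so the order of the first pair turned, and the terms were not tested against each other.

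*Runx1* had a term below 0 for *Ihh* and a smaller one above 0 for *Ibsp*. It was 70.7 and 79.7 CPM with none, 80.1 and 81.3 with *Ibsp* alone, 35.8 and 36.4 with *Ihh* alone, and 36.2 and 36.6 with *Ihh* and *Ibsp*, for terms of -0.92, 0.14 and -0.15 for *Ihh*, *Ibsp* and *Col10a1*. These terms were -1.26, 0.65 and -0.06 with 3 or more UMIs. That for *Ibsp* also passed there (edgeR adjusted p = 0.000773), with the same limit on its p-value. At 1 or more UMIs, *Ihh* and *Ibsp* lay close to *Ihh* alone, and *Ibsp* alone close to none in replicate B. *Runx1* was 73.6 and 72.9 with *Col10a1* and *Ibsp* against 64.4 and 66.5 with *Col10a1* alone. With all 3 markers it was 37.7 and 31.7, against 29.9 and 31.2 with *Ihh* and *Col10a1*. *Hdac4* passed for the *Ihh* term only (-0.63), at 21.4 and 20.4 with none, 14.2 and 10.5 with *Ihh* alone and 10.2 and 10.6 with all 3. *Runx2* had terms of 0.52 for *Ihh* and 0.47 for *Ibsp*, and *Runx3* of 1.31 and 1.03. All 8 genes passed for the *Ihh* term, where 70.8% of 13985 genes did, 5 for *Ibsp* (*Runx3*, *Mef2c*, *Runx2*, *Mef2d* and *Runx1*), where 16.5% did, and 2 for *Col10a1* (*Mef2c* and *Runx1*), where 5.40% did. None of the 8 passed for *Col10a1* with 3 or more UMIs, where *Runx2* (0.35, edgeR adjusted p = 0.0652) did not pass for *Ihh*, and *Cbfb* (0.37) passed for *Ibsp*. The share of all genes is not given for the terms in those classes. The *Mef2c* term for *Col10a1* was -0.0078 with all barcodes.

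The *Ihh* class differed with culture time. Its depth did too, with Day 7 medians of 26330 and 26619 UMIs in cells with 1 *Ihh* UMI against 6820.5 and 7789 in cells without. At Day 2 these medians were 19996 and 17250 against 18360 and 3712, and the part of depth in the changes was not tested. *Runx1* was 0.25 ± 0.05 higher with *Ihh* at Day 2 (edgeR adjusted p = 0.0016), at -1.28 on Day 7 (edgeR adjusted p = 2.7e-13) and at -0.92 on Day 10. The Day 2 call was lost without Day 2 replicate B (0.19), and the value was -0.15 with 3 or more UMIs and -0.044 with cells thinned. The change of the effect from Day 2 to Day 7 was -1.54 ± 0.07 (edgeR adjusted p = 1.58e-10), in a contrast added after the data were seen, for which 31.8% of genes passed, and -1.47 without Day 2 replicate B. With cells thinned that change was -1.06 and did not pass (edgeR adjusted p = 0.0543), nor did that of any other of the 8. *Runx3* was separated at every day, at 31.5 and 32.4 CPM with *Ihh* against 6.09 and 7.01 without at Day 2 (2.25, edgeR adjusted p = 1.09e-12), 1.37 on Day 7 and 1.60 on Day 10, and at 2.33 on Day 2 without replicate B. *Mef2c* was 0.98 higher with *Ihh* on Day 2, 0.62 on Day 7 and 1.24 on Day 10, and its Day 2 value was 1.41 without muscle-like and macrophage-like cells. At Day 2, 5 of 8 genes passed over all cells, where 31.6% of genes did (3 without replicate A of that day, 4 without replicate B), and at Day 7 all 8, where 56.7% did, although *Mef2d* (-0.16, edgeR adjusted p = 0.0234) did not pass with DESeq2, without Day 7 replicate B or with 3 or more UMIs (-0.08). At Day 2 with 3 or more UMIs, *Runx1* and *Runx2* (0.02) were lost and *Hdac4* (-0.49) passed. With cells thinned, 2 passed at Day 2 and 3 at Day 7, in fits for which the share of all genes is not given.

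From Day 7 to Day 10, the *Ihh* effect moved up for *Mef2c* by 0.62 ± 0.04 (edgeR adjusted p = 1.61e-09), for *Runx2* by 0.46 ± 0.04 (edgeR adjusted p = 9.05e-07), and for *Mef2d* by 0.55, *Mef2a* by 0.39 and *Runx1* by 0.37, where 24.4% of genes passed. With cells thinned only *Mef2c* (0.47) passed, and *Runx1* was at -0.051. Among *Acan* cells, 4 of these 5 passed again, at 0.50 for *Mef2c*, 0.31 for *Runx2*, 0.51 for *Mef2d* and 0.30 for *Mef2a*, where 23.5% did, and *Runx1* did not (0.06, edgeR adjusted p = 0.504). With cells thinned none of the 8 passed among *Acan* cells, where *Runx2* was at -0.11, *Mef2d* at -0.25 and *Mef2a* at -0.042.

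Among *Acan* cells of Day 2, 4 of 8 passed for *Ihh*, where 18.2% of genes did, with *Runx3* at 1.03, *Mef2c* at 0.78, *Runx1* at 0.26 and *Runx2* at -0.19, the last opposite in sign to its 0.18 over all cells. Without Day 2 replicate B, *Runx1* (0.22) and *Runx2* (-0.18) did not pass there. *Runx1* did not pass with 3 or more UMIs either (0.03, edgeR adjusted p = 0.894), and with cells thinned it was at -1.27 and only *Mef2c* passed. At Day 7, 6 passed among *Acan* cells, where 55.4% did, with *Runx3* at 1.03, *Mef2c* at 0.47, *Runx1* at -1.13, *Mef2a* at -0.69, *Hdac4* at -0.49 and *Cbfb* at -0.31, of which *Mef2c*, *Runx1* and *Mef2a* passed with cells thinned. The change of the effect from Day 2 to Day 7 passed there for 4 genes, where 18.3% of genes did, among them *Runx1* at -1.39. With cells thinned none of the 8 passed for that change, and *Runx1* was at 0.46.

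For *Ibsp*, the effect on *Mef2c* rose by 0.35 ± 0.05 from Day 7 to Day 10 (edgeR adjusted p = 0.000638), the 1 gene of 8 to pass, where 2.63% of genes did, and by 0.33 among *Acan* cells, where 1.43% did. Neither passed with cells thinned. In classes of 3 or more UMIs, *Runx3* (1.09), *Runx1* (0.67) and *Hdac4* (-0.68) passed too over all cells, and *Runx3* and *Hdac4* among *Acan* cells. The share of all genes is not given for the change in those classes. At Day 7 the *Ibsp* class was small, with 244 and 209 cells, and *Runx3* (1.07), *Mef2c* (0.61), *Runx2* (0.58) and *Runx1* (-0.30) passed, where 9.91% of genes did, and *Mef2c* and *Runx2* with cells thinned. Among *Acan* cells of Day 7, *Runx3* (0.83), *Mef2c* (0.49) and *Runx2* (0.46) passed, where 2.50% did, and none with cells thinned. At Day 2, 12 and 11 cells held an *Ibsp* UMI, too few for a test.

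**Figure D4:**
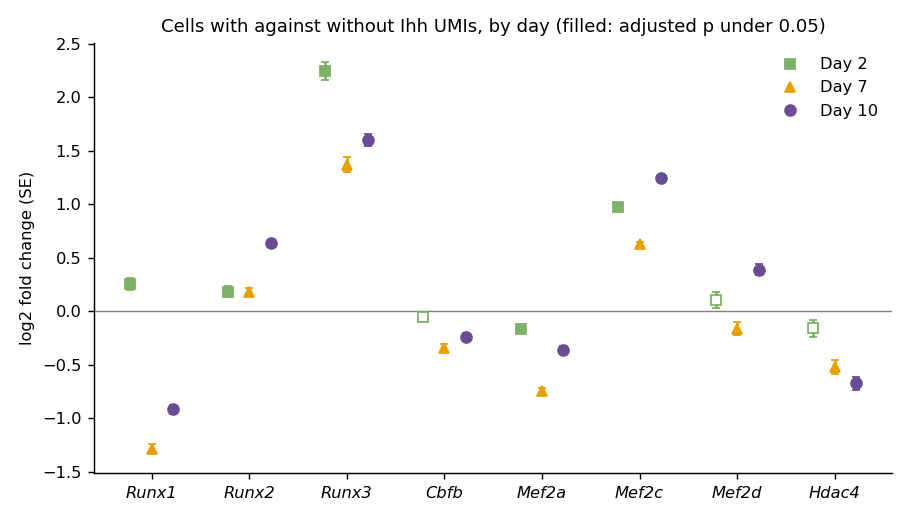
Log2 fold change with its SE (vertical axis) between cells with and without *Ihh* UMIs for each gene (horizontal axis) at Day 2, Day 7 and Day 10, filled where the adjusted p was under 0.05. *Runx1* is above 0 on Day 2 and below it later, *Runx3* and *Mef2c* are above 0 at every day, and *Hdac4* is lowest at Day 10.

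The *Col10a1* class was also drawn earlier in the culture. At Day 2, *Runx2* (0.60), *Mef2a* (0.50), *Mef2c* (0.39) and *Runx1* (0.32) were higher with *Col10a1*, where 15.8% of genes passed. These cells were not richer in cartilage markers, which summed to 1309 and 1493 CPM against 1471 and 1600 without, and were richer in contractile ones, at 5880 and 5513 against 3779 and 3099. Without Day 2 replicate B, *Runx1* was at 0.13 and did not pass, the other 3 passed, at 0.61 for *Runx2*, 0.57 for *Mef2a* and 0.43 for *Mef2c*, and *Runx1* was at 0.07 with 3 or more UMIs. With cells thinned, none of the 4 passed, and *Runx1* was at -0.16. At Day 7, *Runx3* (0.29), *Mef2a* (0.15), *Mef2c* (0.13) and *Runx1* (-0.20) passed, where 18.2% of genes did, none of them without Day 7 replicate A and 1 without replicate B. With 3 or more UMIs, *Mef2c* (edgeR adjusted p = 0.0685) and *Runx3* (edgeR adjusted p = 0.248) did not pass and *Hdac4* (-0.30) did, and in cells of 10000 to 40000 UMIs *Runx1* was at 0.014. From Day 7 to Day 10 the *Col10a1* effect moved for *Mef2c* alone of the 8, by 0.20 (edgeR adjusted p = 0.0364), where 7.00% of genes passed. *Mef2a* (-0.36) passed too with 3 or more UMIs, and with cells thinned none did.

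Among *Acan* cells with *Col10a1*, *Mef2c* (0.67) passed on Day 2, where 2.49% of genes did, *Runx3* (0.30) and *Runx1* (-0.19) on Day 7, where 11.0% did, and none of the 8 for the change from Day 7 to Day 10, where 2.38% did. The Day 7 calls ranged from 0 to 3 on leaving out a library, and *Runx1* was at 0.077 in cells of 10000 to 40000 UMIs and 0.14 with cells thinned. In classes of 3 or more UMIs, *Mef2a* (0.45) and *Mef2c* (0.20) passed at Day 7 in their place, and *Mef2a* (-0.42) and *Mef2c* (0.31) for the change. Among *Acan* cells at Day 10, *Runx3* (0.31), *Mef2c* (0.23) and *Runx1* (-0.21) passed for *Col10a1*, where 7.52% did. None of the 8 passed in cells of 10000 to 40000 UMIs, and with cells thinned only *Mef2c* did and *Runx1* was at 0.11. For these fits the share of all genes is not given. *Mef2d* (0.24, edgeR adjusted p = 0.0242) passed as well with 3 or more UMIs. *Ibsp* in the same cells gave *Runx3* (2.14-fold), *Mef2c* (0.82), *Runx2* (0.46), *Mef2d* (0.26), *Hdac4* (-0.20) and *Mef2a* (-0.16), where 22.7% did, of which the first 3 passed with cells thinned.

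Cells gated at 3 or more UMIs of a gene of 1 lineage showed where each regulator was highest at Day 10, as overlapping groups with no test. Cells with *Sp7*, the osteoblast transcription factor known as Osterix (633 and 543 cells), had the highest *Runx2* at 110 and 118 CPM, *Runx3* at 53.3 and 53.5, *Mef2c* at 476 and 488 and *Mef2d* at 32.2 and 32.1. *Acan* cells came next for *Runx2*, at 79.5 and 83.6. *Runx1* was highest in cells with *C1qb*, a complement gene of macrophages, at 134 and 126, where *Runx2* was 18.4 and 12.4. Among the other gates, *Runx1* was 87.1 and 89.0 with *Tnmd*, the tendon gene tenomodulin, and 90.3 and 83.4 in the 35 and 44 cells with *Gdf5* of the joint interzone, which do not differ beyond their spread.

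*Hdac4* was highest in cells with *Prg4*, which encodes the joint lubricant lubricin, at 26.1 and 21.5 CPM, and was 11.1 and 11.8 in *Sp7* cells and 15.0 and 10.4 in *C1qb* cells. *Prg4* cells in turn had the lowest *Runx3*, at 2.57 and 3.91, and with the *Cnn1* cells of contractile stroma the lowest *Mef2c*, at 79.9 and 89.9 against 81.9 and 85.8. *Mef2a* was highest in *C1qb* cells at 192 and 182. By the ratio of the highest to the lowest gate, *Cbfb* varied least, from 34.2 to 53.3 in replicate A and 32.5 to 46.6 in replicate B. At Day 2, the 246 and 156 cells with *Myog*, the muscle factor myogenin, had 1028 and 1289 CPM of *Mef2c* and only 5.22 and 1.60 of *Runx2*, while *Acan* cells had 223 and 252 of *Mef2c*.

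**Figure D5:**
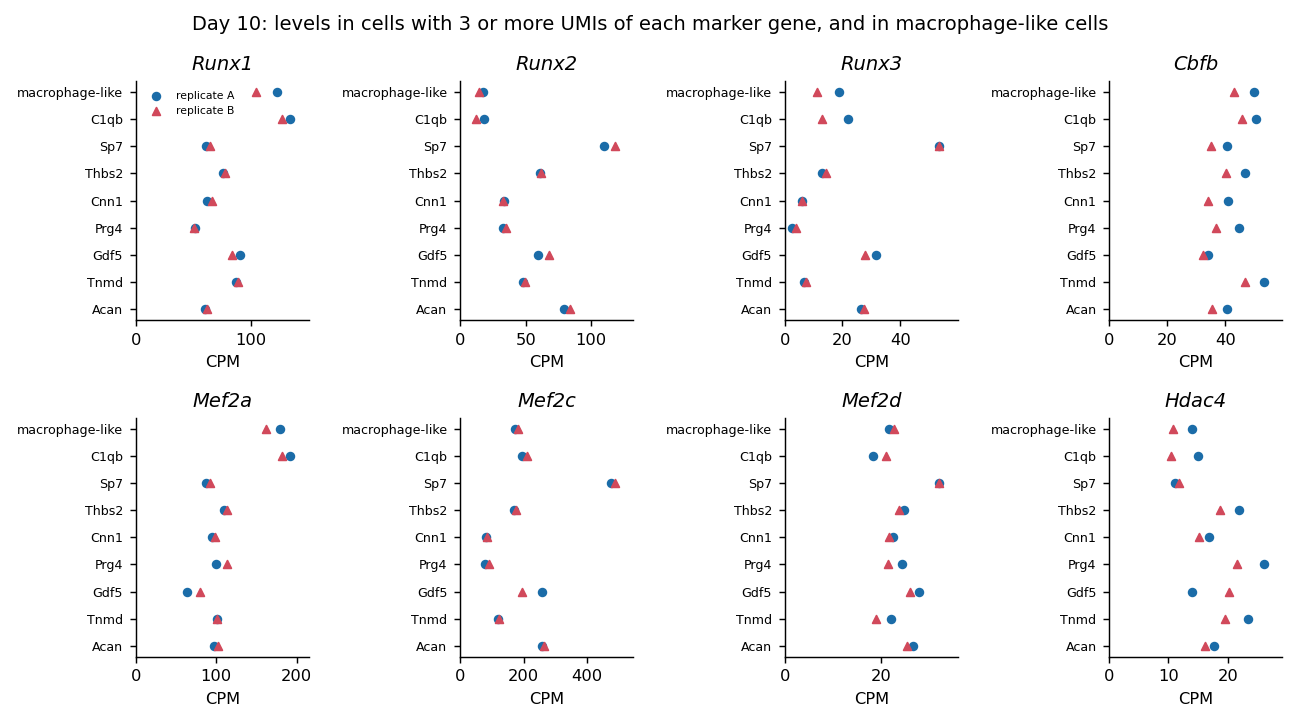
CPM of each of the 8 genes (horizontal axes, from 0) in Day 10 cells with 3 or more UMIs of each named gene and in macrophage-like cells (vertical axes), with 1 point per replicate. *Runx2*, *Runx3*, *Mef2c* and *Mef2d* are highest in *Sp7* cells, *Runx1* and *Mef2a* in *C1qb* cells, and *Hdac4* in *Prg4* cells.

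Patterns across cells were compared over 17 disjoint Day 10 groups, drawn on the presence of *Acan*, *Ihh*, *Col10a1*, *Ibsp*, *Tnmd*, *Prg4* and *Cnn1* UMIs after thinning, in both replicates (34 points). These points share 2 libraries and the genes that drew the groups, so Pearson's r of log2(CPM + 5) is a description. *Mef2c* and *Runx3* were at r = 0.961, *Mef2c* and *Runx2* at 0.946, and *Runx2* and *Runx3* at 0.935, while *Mef2d* was at 0.785 to 0.791 with each of them. *Runx1* was near 0 with *Runx2* (0.0383) and *Mef2c* (-0.00840), and nearest to *Cbfb* (0.655) among the 8. *Hdac4* was at -0.377 with *Runx3* and -0.278 with *Mef2c*.

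In this way 5518 genes were compared, with the regulators left out of the ranking. None of the genes named from it is one that drew the groups. *Mef2c* and *Runx3*, at 0.961 with each other, were closer than *Pth1r* was to either. Those ranked nearest to *Runx2* were *Alpl* (0.959), which encodes the alkaline phosphatase of mineralizing cells, *P4ha1* (0.948), a collagen prolyl hydroxylase subunit, and *Sp7* (0.947). For *Runx3* they were *Alpl* (0.973), *Smpd3* (0.967), a sphingomyelinase needed for bone mineral, and *Pth1r* (0.959), the PTHrP receptor. For *Mef2c* they were *Sp7* (0.969), *Alpl* (0.964) and *Pth1r* (0.947). *Mef2d* was nearest to *Gpc1* (0.857), *Sp7* (0.852) and *Mogs* (0.850), *Runx1* to *Fgf7* (0.842), a fibroblast growth factor of mesenchyme, *Cemip2* (0.834) and *Ptprd* (0.828), and *Hdac4* to *Phip* (0.790), *Igfbp3* (0.784) and *Pros1* (0.781). *Cbfb* was nearest to *Col8a2* (0.795), *Nsg1* (0.762) and *Nsd3* (0.747), and *Mef2a* to *Tbl1xr1* (0.835), *Aopep* (0.808) and *Ptprs* (0.746).

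The other genes of these pathways were counted in 3 lists. The list of the MEF2 and HDAC4 circuit holds 24 genes, among them the other class IIa deacetylases, the kinases and 14-3-3 proteins that control where these sit, and PTHrP and its receptor. From Day 2 to Day 7, 6 rose and 12 fell, where 35.7% of all genes rose and 34.6% fell (median -0.17, against 0.01 over all genes). The largest change was that of *Nr4a1*, a MEF2 target, at 1.65, opposite in sign to the median. From Day 7 to Day 10, 11 rose and 6 fell, where 26.3% of all genes rose and 25.9% fell (median 0.14 against -0.02), led by *Pth1r* at 1.14. With *Ihh* at Day 10, 7 were higher and 16 lower, where 29.1% of all genes were higher and 30.5% lower (median -0.29 against -0.02), and *Pth1r*, a gene of the prehypertrophic cell, was 2.82 higher. With *Ibsp*, 5 were higher and 8 lower, where 12.2% and 15.1% of all genes were (median -0.11 against -0.02), *Pth1r* being 1.82 higher. With *Col10a1*, 2 were higher and 4 lower, where 5.56% and 4.60% of all genes were (median 0.02 against -0.01, opposite in sign to the counts), *Pth1r* being 0.77 higher.

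The list of partners and regulators of RUNX holds 24 symbols, of which *Tle5* and *Aes* name the same gene. Of these symbols, 23 were tested. Most fell early, with 2 higher and 18 lower at Day 7 than at Day 2, where 35.7% and 34.6% of all genes were (median -0.37 against 0.01), led by *Msx2*, a homeobox gene of limb and skull, at -1.53. From Day 7 to Day 10, 11 rose and 4 fell, where 26.3% and 25.9% of all genes did (median 0.19 against -0.02), and the largest change was that of *Tle4*, a Groucho corepressor, at -1.11. With *Ihh* at Day 10, 9 were higher and 13 lower, where 29.1% and 30.5% of all genes were (median -0.20 against -0.02), with *Sox9*, the master factor of chondrocytes and a repressor of RUNX2 activity, 1.56 higher. With *Ibsp*, 7 were higher and 10 lower, where 12.2% and 15.1% of all genes were (median -0.03 against -0.02), with *Dlx5*, a homeobox activator of bone genes, 0.80 higher. With *Col10a1*, 6 were higher and 3 lower, where 5.56% and 4.60% of all genes were (median -0.05 against -0.01, opposite in sign to the counts), with *Msx2* 0.76 higher.

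Of 20 targets of hypertrophy and bone, the list that holds the 3 markers, 15 rose and 3 fell from Day 2 to Day 7, where 35.7% and 34.6% of all genes did (median 1.67 against 0.01). From Day 7 to Day 10, 16 rose and 0 fell, where 26.3% and 25.9% did (median 0.96 against -0.02), led by *Ibsp* at 7.18. Leaving out the marker itself, 12 of 19 were higher and 5 lower with *Ihh* at Day 10, where 29.1% and 30.5% of all genes were (median 1.29 against -0.02), led by *Panx3*, a channel of prehypertrophic cells and osteoblasts, at 3.29. With *Ibsp*, 15 of 19 were higher and 3 lower, where 12.2% and 15.1% of all genes were (median 1.54 against -0.02), led by *Alpl* at 2.17. With *Col10a1*, 7 of 19 were higher and 3 lower, where 5.56% and 4.60% of all genes were (median 0.08 against -0.01), led by *Ihh* at 1.51.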

How the data were processed

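Counts were deposited as UMI matrices that the authors made with Cell Ranger 6.1.2, aligning reads to GRCm38 and keeping barcodes called as cells, before any filter or normalization. From these counts, the limits of the study on UMIs, detected genes (200 to 7500), mitochondrial and ribosomal share were applied per library, and doublets were not removed. UMIs were summed per library, or per library and class of cells (sums of at least 20 cells), and tested with edgeR 4.0.16 in R 4.3.3 (filterByExpr, TMM, quasi-likelihood, library as covariate for classes), with Benjamini-Hochberg adjustment over all genes tested and a threshold of 0.05. Cells are not replicates, and p-values measure the spread between these libraries only. Intervals cover counting error only.

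Macrophage-like and muscle-like cells held 10 or more UMIs over 6 markers from at least 3 of them. Thinning, DESeq2 1.42.0, other scalings, filters and left-out libraries were alternatives. In the thinned fits, marker and *Acan* classes were drawn on the thinned counts. The genes named are the 8 regulators, the 3 markers and the 3 genes nearest each regulator. The last were ranked among genes other than the regulators with a mean of at least 20 CPM. Also named is the gene of each list with the largest change among those called at 10 CPM or more. Members and lists were chosen with earlier results of these data known. On simulated data, edgeR recovered 86% of genes changed 2-fold and 20% of those changed 1.25-fold between Day 10 and Day 7 among 18987 genes. The simulation gave all genes the same dispersion and changed few of them, unlike these data, so these rates need not hold for the 8 genes. Positions come from the GRCm38 annotation, and *Runx1*, *Runx2*, *Runx3*, *Mef2a* and *Mef2d* overlap genes on the opposite strand. Python 3.11.15 was used for the rest.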

Additional observations from a re-analysis of the deposited data

Results flagged for a closer look

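The difference between cells with and without a marker changed with culture time for several of the 8 genes, by a test of the change itself (edgeR, log2 scale). For *Ihh*, the effect moved from Day 7 to Day 10 by 0.62 for *Mef2c*, 0.55 for *Mef2d*, 0.46 for *Runx2*, 0.39 for *Mef2a* and 0.37 for *Runx1*, and among *Acan* cells by 0.50 for *Mef2c*, 0.51 for *Mef2d*, 0.31 for *Runx2* and 0.30 for *Mef2a*. With cells thinned, 1 of the 8 passed over all cells (*Mef2c*, 0.47), with *Runx1* at -0.051, and none among *Acan* cells, with *Runx2* at -0.11, *Mef2d* at -0.25 and *Mef2a* at -0.042.

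From Day 2 to Day 7, the *Ihh* effect moved by -1.54 for *Runx1*, -0.88 for *Runx3*, -0.58 for *Mef2a*, -0.36 for *Hdac4*, -0.35 for *Mef2c*, -0.30 for *Cbfb* and -0.27 for *Mef2d*. Among *Acan* cells the move was -1.39 for *Runx1*, -0.66 for *Mef2a*, -0.31 for *Mef2c* and 0.24 for *Runx2*, and *Runx3* did not pass. Without Day 2 replicate B, *Mef2d* (-0.19) over all cells and *Runx2* (0.24) among *Acan* cells did not pass. With cells thinned none of the 8 passed for this change, over all cells or among *Acan* cells, with *Hdac4* at 0.48 over all cells and *Runx1* at 0.46 among *Acan* cells. The *Mef2c* move over all cells was -0.72 without macrophage-like and muscle-like cells.

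For *Ibsp*, the effect on *Mef2c* moved by 0.35 from Day 7 to Day 10, and by 0.33 among *Acan* cells. For *Col10a1*, the effect on *Mef2c* moved by 0.20. None of these 3 passed with cells thinned. For the thinned fits of all these changes, the share of all genes that passed is not given.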

How the results depend on the processing

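With 2 libraries a day, calls near the threshold depend on single libraries, and shallow cells limit what classes of 1 UMI can show. Of 3344 values of single genes under alternatives, 2870 kept their direction and their side of the threshold, 180 changed sign without passing in either fit or by less than 1 SE, 196 kept the direction but no longer passed, 59 newly passed, 26 reversed, and 13, from the additive fit with 1 library, moved by more than their SE with no test. The cause was not tested, except that thinned classes hold fewer cells by construction. For most of these alternatives the share of all genes that passed is not given. A lower count of regulators under them, in the paragraphs above or below, therefore cannot be told apart from fewer calls among all genes.

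The number of the 8 genes called stayed at 8 from Day 2 to Day 7 and at 7 from Day 2 to Day 10 on leaving out a library, and ranged from 3 to 6 from Day 7 to Day 10. In cells with *Ihh*, it was 8 to 8 at Day 10, 7 to 8 at Day 7, 3 to 5 at Day 2, 5 to 6 for the change from Day 7 to Day 10 and 5 to 7 for that from Day 2 to Day 7. Among *Acan* cells with *Ihh* these ranges were 8 to 8, 6 to 6, 2 to 4, 4 to 4 and 3 to 4. With *Ibsp* they were 3 to 6 at Day 10, 3 to 4 at Day 7 and 1 to 2 for the change, and among *Acan* cells 3 to 6, 2 to 3 and 1 to 1. With *Col10a1* they were 2 to 3 at Day 10, 0 to 4 at Day 7, 3 to 4 at Day 2 and 0 to 2 for the change, and among *Acan* cells 1 to 3, 0 to 3, 1 to 2 and 0 to 0.

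With cells thinned to 3000 UMIs, the counts with *Ihh* were 3 at Day 7, 2 at Day 2, 1 for the change to Day 10 and 0 for that from Day 2, and among *Acan* cells 4 at Day 10, 3 at Day 7, 1 at Day 2, and 0 and 0 for the changes. With *Ibsp*, thinning gave 2 at Day 7 and 0 for the change, and among *Acan* cells 3 at Day 10, 0 at Day 7 and 0 for the change. With *Col10a1*, it gave 0 at Day 2, 1 at Day 7 and 0 for the change, and among *Acan* cells 1 at Day 10 and 0 at Day 7. In cells of 10000 to 40000 UMIs, the counts were 3 with *Ihh* at Day 2 and 4 for its change from Day 2, 1 with *Col10a1* at Day 10, 2 at Day 7, 0 for its additive term and 0 among *Acan* cells at Day 10.

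With 3 or more UMIs, they were 5 with *Col10a1* at Day 10, 2 for its change over all cells and 2 among *Acan* cells, 0 for its additive term, and 4 and 3 for the change with *Ibsp* over all and *Acan* cells. DESeq2 called 3 with *Ibsp* at Day 10 over all cells and 3 among *Acan* cells, 0 for the change with *Col10a1* and 2 with *Col10a1* among *Acan* cells at Day 2, where RLE size factors gave 2, no filter 2 and all barcodes 0. No filter also gave 2 for the change with *Col10a1*, all barcodes 1 for it among *Acan* cells, and leaving out macrophage-like and muscle-like cells 1 for the additive *Col10a1* term.

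The replicate letters did not pair the libraries (correlations of deviations -0.00940, -0.0767 and 0.0101), and with the letter as a replicate block the counts between days were 8, 6 and 7 as without it. Without the library as a replicate block, the counts were 3 with *Ihh* at Day 2, 4 for its change from Day 2 and 2 for that among *Acan* cells, 0 for the change with *Ibsp* over all cells and 0 among *Acan* cells, 0 with *Col10a1* at Day 7, 0 for its change and 1 for its additive term.

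With cells thinned, these values reversed, of which *Runx1* with *Ibsp* and *Mef2a* with *Col10a1* at Day 10 had not passed before thinning. With *Ihh*, *Mef2d* was at -0.086 at Day 10, *Runx1* at -0.044 at Day 2 and -0.051 for the change to Day 10, and *Hdac4* at 0.48 for the change from Day 2. Among *Acan* cells with *Ihh*, *Runx2* was at -0.078 and *Mef2d* at -0.25 at Day 10, *Runx1* at -1.27 at Day 2 and 0.46 for its change, and *Runx2*, *Mef2a* and *Mef2d* at -0.11, -0.042 and -0.25 for the change to Day 10. With *Ibsp* at Day 10, *Runx1* was at 0.37, *Mef2a* at 0.20 and 0.086 (*Acan* cells) and *Hdac4* at 0.047. With *Col10a1*, *Mef2a* was at 0.28 at Day 10, *Runx1* at -0.16 at Day 2, and at 0.11 and 0.14 among *Acan* cells at Day 10 and Day 7.

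With 3 or more UMIs, *Runx1* was at -0.15 with *Ihh* at Day 2 and 0.18 with *Ibsp* at Day 10, and *Mef2c* at -0.056 for the *Col10a1* term. In cells of 10000 to 40000 UMIs, *Runx1* with *Col10a1* at Day 7 was at 0.014, and 0.077 among *Acan* cells. With all barcodes, *Mef2c* was at -0.063 with *Col10a1* at Day 7 and -0.00782 for its term. A pseudocount of 1 CPM in place of 5 left at least 2 of the 3 nearest genes of each regulator in place.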
